A study of Mus musculus with 2 samples.

Results

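Germ cell and meiosis genes were examined in 2 clones of mouse epiblast stem cells (EpiSC), primed pluripotent cells that resemble the postimplantation epiblast. The genes were chosen by name: 35 symbols, all of which are on the array, were read by 43 probes on 18 chromosomes, out of 19703 genes with a RefSeq mRNA accession. The cells were EpiSC clone 2 and EpiSC clone 1, with 1 array each; both are wildtype, female, of C57BL/6 background and at passage 9. Total RNA was labelled with Cy3 and hybridised to a 1-colour Agilent mouse array. A clone is a single line with a single culture measured here, so no test between clones was possible, and every difference below is a description of 2 arrays whose number limits the precision.

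Germ cells arise in the mouse from the epiblast, the tissue that EpiSC resemble. Later in their development they switch on a program for meiosis, in which homologous chromosomes are cut, paired along a protein scaffold called the synaptonemal complex and held together by meiosis-specific cohesin. They also make piRNAs, small RNAs that guide PIWI proteins to silence transposons, with the help of Tudor-domain proteins. In somatic and pluripotent cells many of these genes are kept off by DNA methylation and by a Polycomb-type complex that contains the DNA-binding proteins E2F6, MGA and MAX.

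Markers of the labelled cell type were present, but not alone. All 9 epiblast stem cell markers were well above background on both arrays, as were all 8 fibroblast markers and 65.2% of all genes. Of 9 markers of the somatic cells of the gonad, 4 were (Dhh, Sox9, Cyp17a1 and Foxl2), and Amh, Star, Hsd3b1, Fshr and Lhcgr were on neither array. In clone 2 the epiblast markers read from 994 (Sox2) to 54406 (Dnmt3b). There the fibroblast markers read from 536 (Postn) to 23428 (Col1a2), and Foxl2 read 16297. Detection of these lists therefore does not by itself identify the cells. The fibroblast markers differed between clones by -0.17 to 0.30 log2 (clone 2 minus clone 1, median 0.12). The part of fibroblast RNA in the values below was not tested, and in bulk RNA fewer cells of a type and less RNA per cell cannot be told apart. A gene was called detected where the scanner software flagged at least 1 of its probes as well above background. The faintest detected probe read 31.0 in clone 2 and 35.1 in clone 1. Negative control spots had a median of 7.13 in clone 2 and 7.96 in clone 1, and a 95th percentile of 8.99 and 10.1. The brightest negative control spot read 85.1 in clone 2 and 329 in clone 1. These maxima exceed the signals of Piwil1 in clone 2 and of Sycp1 and Stag3 in clone 1 given below, each from a single spot.

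Most of the germ cell program was below the detection limit in both clones. Of the 35 genes, 8 were detected on both arrays (22.9%), whereas 65.2% of all genes were. A further 2 were detected in clone 2 only (all genes 2.34%), 2 in clone 1 only (all genes 2.16%), and 23 on neither array. Each clone thus showed 10 of the 35. The 8 shared genes were Syce2, Rec8, Stag3, Nanos3, Dnd1, Prdm1, Tdrd5 and Tdrd7. Piwil1 and Prdm9 were detected in clone 2 only, and Sycp1 and Ddx4 in clone 1 only.

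**Figure D1:**
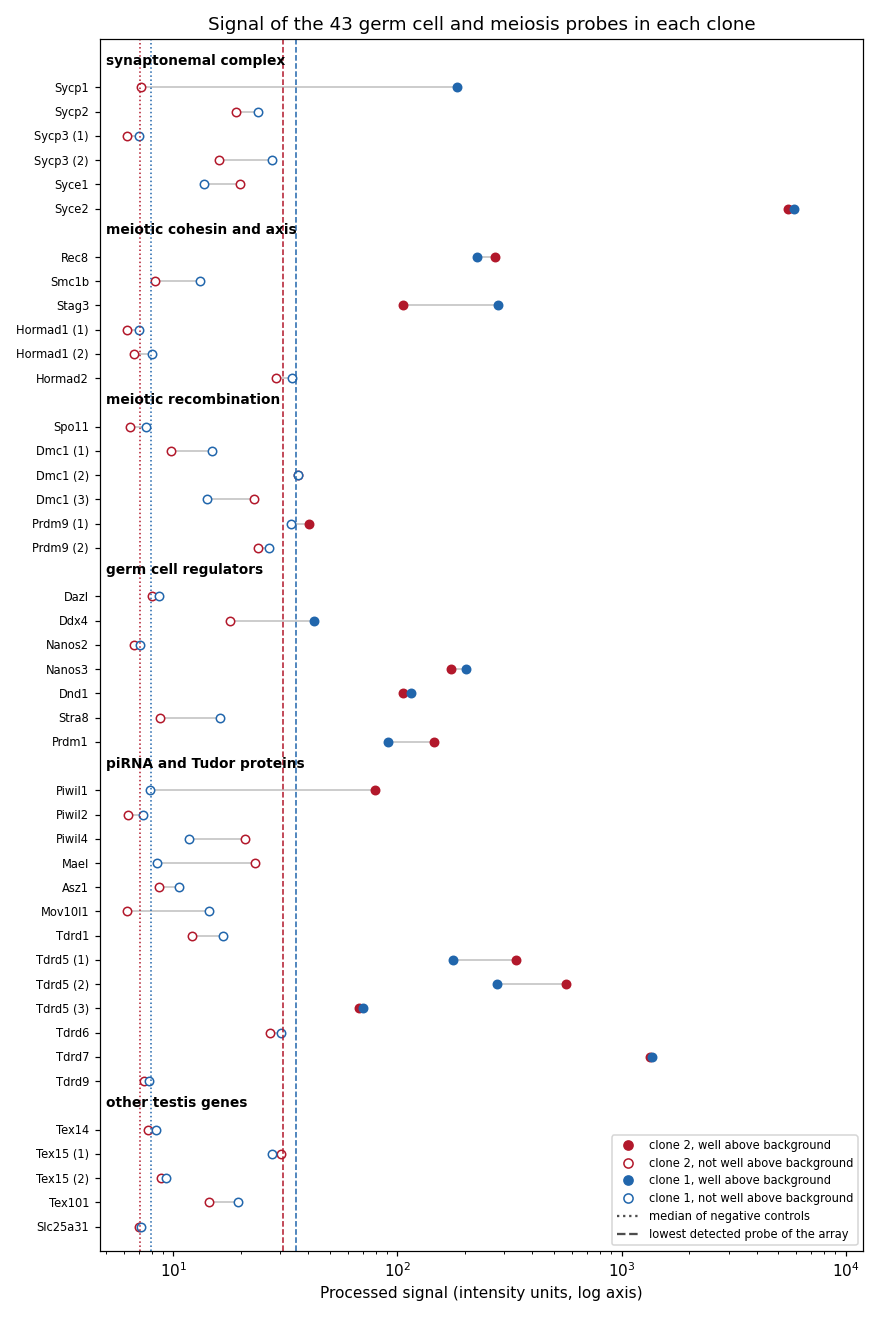
Processed signal of each of the 43 probes (log axis, intensity units) in clone 2 (red) and clone 1 (blue), grouped by role; filled points were well above background, dotted lines mark the median of the negative controls and dashed lines the lowest detected probe of each array, with numbers in brackets for genes with several probes. Most points lie open and left of the dashed lines, while those of Syce2, Rec8, Stag3, Nanos3, Dnd1, Prdm1, Tdrd5 and Tdrd7 are filled in both clones.

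The 29 probes detected on neither array had signals of 6.23 to 35.9 in clone 2 (median 8.80) and 7.01 to 35.8 in clone 1 (median 13.2). In 11 of these probes neither spot differed from background by the software's more lenient flag, which asks only for a positive and significant signal. Another 15 passed that flag on both arrays. Among these, Mov10l1 read 6.25 in clone 2, under the negative control median of 7.13. The lenient flag alone therefore does not show that RNA of the gene was present. With the lenient flag, 22 of the 35 genes (62.9%) were detected on both arrays, and 82.4% of all genes. The share of germ cell genes was below that of all genes under either flag. Genes without a signal by the lenient flag on either array were Hormad1, Spo11, Dazl, Nanos2, Piwil2, Asz1, Tdrd9 and Tex14.

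**Figure D2:**
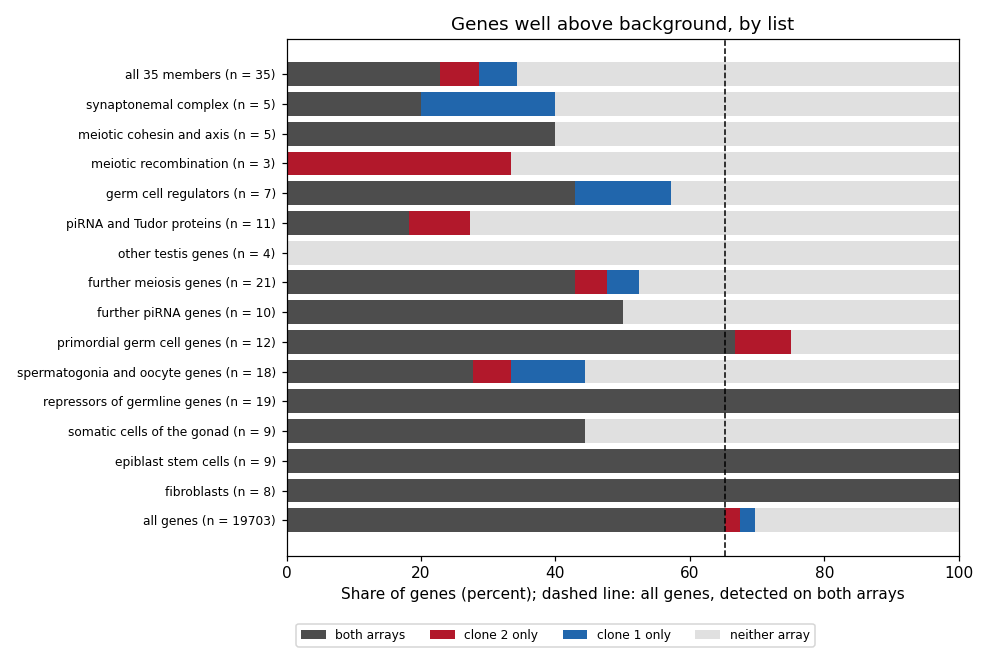
Share of genes (percent) detected on both arrays (dark), in clone 2 only (red), in clone 1 only (blue) or on neither (light) for the 35 genes, their 6 roles, 8 other lists and all genes, with the number of genes in brackets. The dashed line marks the 65.2% of all genes that were detected on both arrays.

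The synaptonemal complex is a zipper of transverse filaments (Sycp1), lateral elements (Sycp2 and Sycp3) and a central element (Syce1 and Syce2). Only its central element gene Syce2 was detected in both clones (20.0% of the 5 genes, against 65.2% of all genes). Promoters of 4 of these 5 genes are shown because detection differed from gene to gene within this one structure. They span 250 bases before to 50 after the start site in GRCm38.p6, as given by RefSeq, and capitals mark matches to the E2F6 core TCCCGC and the E-box CACGTG (the motif of helix-loop-helix factors such as MAX and its partner MGA) on either strand.
Sycp1, chr3:102936051-102936350, minus strand: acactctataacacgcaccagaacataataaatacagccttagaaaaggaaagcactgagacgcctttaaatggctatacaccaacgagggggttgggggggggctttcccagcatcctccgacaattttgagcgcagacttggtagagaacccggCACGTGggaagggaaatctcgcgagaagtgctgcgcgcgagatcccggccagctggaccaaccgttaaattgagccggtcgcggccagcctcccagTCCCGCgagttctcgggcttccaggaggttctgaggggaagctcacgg
Syce2, chr8:84872008-84872307, plus strand: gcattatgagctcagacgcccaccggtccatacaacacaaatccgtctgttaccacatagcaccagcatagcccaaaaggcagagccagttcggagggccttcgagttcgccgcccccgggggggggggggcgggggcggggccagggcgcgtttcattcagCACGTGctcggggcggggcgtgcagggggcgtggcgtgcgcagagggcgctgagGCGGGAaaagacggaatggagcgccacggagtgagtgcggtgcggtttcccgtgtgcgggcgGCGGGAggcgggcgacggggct
Sycp2, chr2:178407609-178407908, minus strand: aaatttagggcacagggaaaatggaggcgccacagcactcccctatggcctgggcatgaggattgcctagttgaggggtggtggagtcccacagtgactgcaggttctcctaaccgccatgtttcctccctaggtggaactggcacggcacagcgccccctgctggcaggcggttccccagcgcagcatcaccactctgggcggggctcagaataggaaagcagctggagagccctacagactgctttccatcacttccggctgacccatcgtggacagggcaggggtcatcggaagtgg
Sycp3, chr10:88459337-88459636, plus strand: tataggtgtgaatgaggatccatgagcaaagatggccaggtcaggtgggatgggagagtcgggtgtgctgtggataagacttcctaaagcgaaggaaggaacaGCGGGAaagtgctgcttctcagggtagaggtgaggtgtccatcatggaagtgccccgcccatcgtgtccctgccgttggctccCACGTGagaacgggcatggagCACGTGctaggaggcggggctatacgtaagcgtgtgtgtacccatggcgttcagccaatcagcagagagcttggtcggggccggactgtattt
Sycp1, detected in clone 1 only, holds 1 match to each motif. The Syce2 window shown, 1 of 2 start sites in RefSeq, holds 2 E2F6 cores and 1 E-box, and its other window holds 1 E2F6 core. Sycp3, detected in neither clone, holds 1 E2F6 core and 2 E-boxes, and Sycp2, also detected in neither, holds none. A match is a string of letters and does not show that a factor binds there.

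Syce2 had a processed signal of 5516 ± 552 in clone 2 and 5875 ± 588 in clone 1. Here and below, the error after ± is the software's own estimate for a single spot, and it leaves out the spread between cultures. After each array was scaled to its 75th percentile (736 intensity units in clone 2, 830 in clone 1), the difference was 0.08 ± 0.20 log2 (clone 2 minus clone 1), smaller than its error. The probe lies at chr8:87410122-87410181 in mm9.

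The transverse filament gene Sycp1 gave 7.14 ± 7.12 in clone 2, at the level of the negative controls, and 184 ± 20.5 in clone 1. The scaled signal was at least 5.26-fold lower in clone 2, taking the lowest detected signal of that array as the limit. Bounds of at least 2-fold in this direction were found for 0.609% of all genes. Of the detected spots adjacent to this one, 1 was also at least 2-fold lower in clone 2. Whether a local artefact of the slide contributed was not tested. With normexp background correction the difference was -0.71 log2. The other 3 genes of the structure stayed under the limit. Sycp2 had 19.0 ± 7.07 in clone 2 and 23.8 ± 7.84 in clone 1, and Syce1 had 19.9 ± 7.06 in clone 2 and 13.8 ± 7.28 in clone 1. The brighter probe of Sycp3 had 16.0 ± 6.94 in clone 2 and 27.6 ± 7.60 in clone 1. All 3 differences were smaller than their errors.

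Meiotic cohesin replaces subunits of the mitotic ring by Rec8 (the kleisin that closes the ring), Smc1b and Stag3, and the HORMA-domain proteins Hormad1 and Hormad2 bind the chromosome axis. In both clones 2 of these 5 genes were detected (40.0%, against 65.2% of all genes), Rec8 and Stag3. Rec8 had 273 ± 28.2 in clone 2 and 226 ± 24.2 in clone 1, a difference of 0.45 ± 0.21 log2. Among all 12820 genes measured on both arrays, 9.20% lay at least as far in this direction.

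Stag3, the other cohesin gene detected, differed in the opposite direction. Its signal was 105 ± 12.5 in clone 2 and 280 ± 28.8 in clone 1, a difference of -1.23 ± 0.23 log2, or 2.35-fold lower in clone 2. None of its detected adjacent spots differed by 2-fold in that direction. Differences of at least 2-fold in this direction were found for 0.952% of all genes measured on both arrays, and Stag3 was the 1 member among them. With normexp correction, which adds an offset of 50 to each spot, the difference was -0.54 log2. Smc1b had 8.26 ± 6.34 in clone 2 and 13.2 ± 7.35 in clone 1. Hormad2 had 28.6 ± 7.75 in clone 2 and 33.9 ± 9.33 in clone 1, just under the detection limit on both arrays, and both probes of Hormad1 lay at the level of the negative controls.

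Recombination begins with breaks made by Spo11 at sites chosen by the histone methyltransferase Prdm9, and the recombinase Dmc1 then searches for the homologue. None of the 3 genes was detected on both arrays, whereas 65.2% of all genes were. Spo11 had 6.38 ± 6.36 in clone 2 and 7.53 ± 7.54 in clone 1, values that the software substitutes for spots not above their background. The brightest of the 3 Dmc1 probes had 35.9 ± 8.16 in clone 2 and 35.8 ± 8.58 in clone 1, close to the limit in both. Prdm9 passed the flag in clone 2 only, but its signals were close, 40.2 ± 8.00 in clone 2 and 33.7 ± 8.98 in clone 1. The difference of 0.43 ± 0.48 log2 was smaller than its error, and its second probe differed by 0.02 log2.

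Among regulators of germ cell fate, 3 of 7 were detected in both clones (42.9%, against 65.2% of all genes). These 3 act early in the lineage. Of a further list of 12 primordial germ cell genes, 8 were detected on both arrays (66.7%), near the share of all genes. Tfap2c was among them (446 in clone 2, 322 in clone 1), whereas Prdm14, Dppa3 and Dppa2 were detected on neither array. Prdm1 (Blimp1), a transcriptional repressor needed to specify primordial germ cells, also acts in other tissues. Nanos3 and Dnd1 encode RNA-binding proteins that keep primordial germ cells alive. Nanos3 had 174 ± 18.9 in clone 2 and 203 ± 21.7 in clone 1, and Dnd1 had 105 ± 13.6 in clone 2 and 115 ± 14.7 in clone 1. Their scaled differences, -0.05 ± 0.22 and 0.04 ± 0.26 log2, were smaller than their errors.

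Prdm1 was higher in clone 2 by less than 2-fold. It had 146 ± 16.4 in clone 2 and 91.2 ± 12.2 in clone 1, a difference of 0.85 ± 0.25 log2 (1.81-fold). At least as large a difference in this direction was found for 2.17% of all measured genes. No detected adjacent spot was at least 2-fold higher in clone 2, a limit that Prdm1 itself does not reach. Smaller shifts of the adjacent spots were not counted.

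The remaining germ cell regulators were near or below the limit. Ddx4 (Vasa), an RNA helicase of germ granules, had 17.9 ± 6.79 in clone 2 and 42.5 ± 9.06 in clone 1. It was detected in clone 1 only. Against the lowest detected signal of clone 2 it was 1.22-fold lower there (-0.28 log2), a margin under its error of 0.63 log2. With normexp correction the difference turned to 0.56 log2, higher in clone 2. Dazl and Nanos2, RNA-binding proteins of germ cells, were at the level of the negative controls in both clones. Stra8, a factor induced by retinoic acid at the entry into meiosis, had 8.73 ± 8.70 in clone 2 and 16.2 ± 8.55 in clone 1, under the limit on both arrays.

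In the piRNA pathway, 2 of 11 genes were detected in both clones (18.2%, against 65.2% of all genes). Both encode Tudor-domain proteins, Tdrd5 and Tdrd7. Tdrd7 had 1343 ± 134 in clone 2 and 1370 ± 137 in clone 1, a difference of 0.15 ± 0.20 log2. Tdrd5, which has a role in transposon silencing in the testis, was the only one of the 8 members measured on both arrays that was at least 2-fold higher in clone 2 (1.41% of all measured genes were). It is read by 3 probes, and these did not give one answer. The first 30 bases of each 60-base probe are shown, with capitals for bases that 2 probes share, 40 in all. The name distal is given to the brightest probe, and on this strand the overlapping probe reaches slightly further downstream.
Tdrd5 distal probe, chr1:158185528-158185587, minus strand: tgattttacatcattctgaaTGGTTTGGTT
Tdrd5 overlapping probe, chr1:158185508-158185567, minus strand: TGGTTTGGTTCACCTTTGTTTTAATGAAGT
Tdrd5 upstream probe, chr1:158197155-158197214, minus strand: tctccttaacagtcgccaagaccggaaatg
The distal probe had 563 ± 56.9 in clone 2 and 277 ± 28.8 in clone 1, a difference of 1.20 ± 0.21 log2 (2.30-fold). Its overlapping neighbour had 340 ± 34.8 in clone 2 and 178 ± 19.6 in clone 1, or 1.11 ± 0.22 log2. These probes share sequence and are not independent readings. The upstream probe, designed from the cDNA AK138828, had 67.3 ± 9.76 in clone 2 and 69.9 ± 10.1 in clone 1, a difference of 0.12 ± 0.30 log2. The mean over the 3 probes was 0.81 log2, and with normexp correction the distal probe gave 0.91, both under 2-fold. Which transcript of Tdrd5 each probe reads was not annotated in the sources used here.

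**Figure D3:**
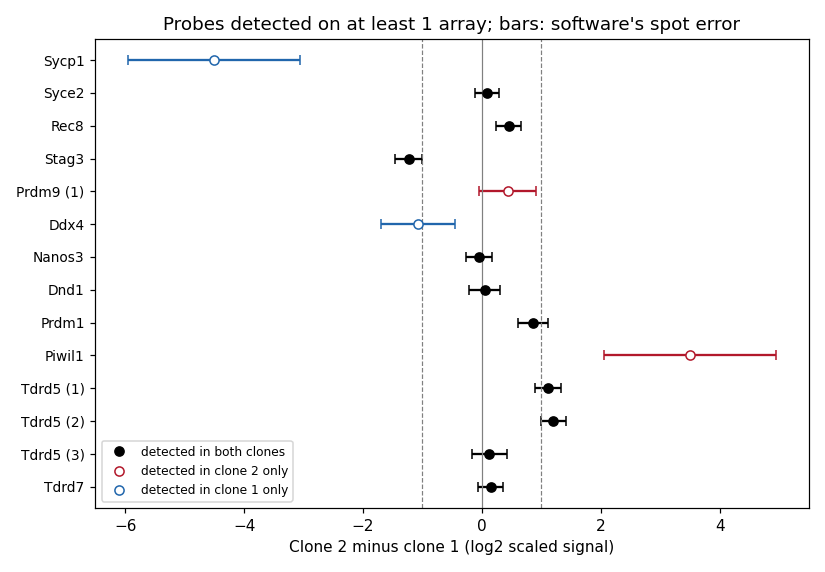
Difference between clones (clone 2 minus clone 1, log2 of the scaled signal) for the 14 probes detected on at least 1 array; bars are the error combined from the software's spot errors on both arrays, dashed lines mark 2-fold. Among filled points, the bar of Stag3 lies clear of 0 on the negative side. Those of Rec8, Prdm1 and the first 2 Tdrd5 probes lie clear of it on the positive side. Open points have a dim side that was not well above background, so that their position gives no fold.

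Of the PIWI genes, whose proteins bind piRNAs, Piwil1 was detected in clone 2 and the others in neither clone. Piwil1 (MIWI), the PIWI protein of late male germ cells, had 79.1 ± 11.0 in clone 2 and 7.91 ± 7.87 in clone 1. In clone 1 the spot was at the level of the negative controls, and the scaled signal was at least 2.55-fold higher in clone 2. For 0.487% of all genes a bound of at least 2-fold lay in this direction. No detected adjacent spot differed by 2-fold in the same direction, and with normexp correction the difference was 1.52 log2. The Piwil1 probe lies at chr5:129260319-129260378 in mm9. Piwil2 (MILI) had 6.26 ± 6.25 in clone 2 and 7.33 ± 7.30 in clone 1, and Piwil4 (MIWI2) had 20.8 ± 7.12 in clone 2 and 11.8 ± 7.80 in clone 1. Neither was detected.

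The other piRNA genes were not detected in either clone. Mov10l1, the helicase that starts piRNA processing, had 6.25 ± 6.19 in clone 2 and 14.4 ± 7.17 in clone 1. Mael, a germ granule protein of transposon silencing, had 23.0 ± 7.29 in clone 2 and 8.50 ± 8.49 in clone 1, and passed the lenient flag in clone 2 only. Tdrd6 had 27.1 ± 8.40 in clone 2 and 30.1 ± 8.27 in clone 1, and Tdrd1 had 12.2 ± 7.83 in clone 2 and 16.6 ± 7.98 in clone 1. For Asz1 and Tdrd9 both arrays held substituted values of spots not above their background.

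None of the 4 remaining testis genes was detected in either clone, whereas 65.2% of all genes were detected in both. Tex14, which is needed for the bridges between dividing germ cells, had 7.73 ± 7.70 in clone 2 and 8.40 ± 8.36 in clone 1. Tex101, a surface glycoprotein of germ cells, had 14.4 ± 6.44 in clone 2 and 19.4 ± 7.25 in clone 1. Slc25a31 (ANT4), an ADP/ATP carrier of the testis, had 7.02 ± 6.54 in clone 2 and 7.18 ± 7.17 in clone 1. The brighter of the 2 Tex15 probes had 30.4 ± 7.21 in clone 2 and 27.7 ± 8.33 in clone 1, near the limit in both.

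Over the 8 genes measured on both arrays, the median difference was 0.11 log2 (clone 2 minus clone 1), against 0.05 over all 12820 measured genes, and the members' median ran from 0.03 to 0.25 over the alternative settings, which took in 8 to 35 members. Of the 8, 6 were higher and 2 lower in clone 2, but the signs of Syce2 and Nanos3, both close to 0, turned with quantile normalization (-0.01 and 0.01 log2). For Syce2, Nanos3, Dnd1 and Tdrd7 the difference was smaller than the spot error, and for Rec8, Stag3, Prdm1 and Tdrd5 it was larger. The SD of differences over all measured genes was 0.39 log2, and repeated spots of 1 probe gave differences with a median SD of 0.09. Probes under 300, where Rec8, Stag3, Nanos3, Dnd1 and Prdm1 lie, were noisier. Within 1 array, their repeated spots had a median SD of 0.12 in clone 2 and 0.10 in clone 1. Over all detected repeated probes it was 0.08 in clone 2 and 0.07 in clone 1. Stag3 and Tdrd5 lay at the 2 ends of the list.

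**Figure D4:**
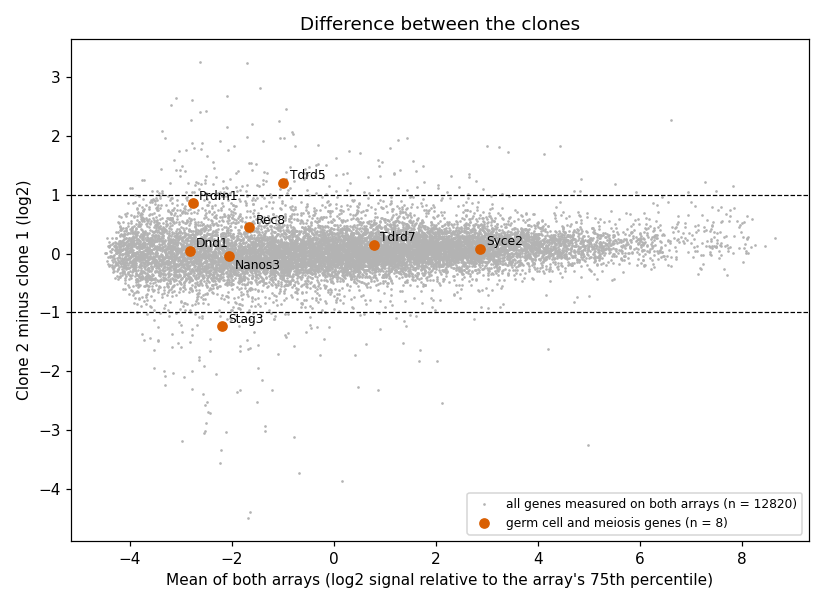
Difference between clones (clone 2 minus clone 1, log2) against the mean scaled signal (log2, relative to the array's 75th percentile) for all 12820 genes measured on both arrays (grey) and the 8 germ cell and meiosis genes (orange); dashed lines mark 2-fold. Tdrd5 lies above the upper line at 1.20 and Stag3 below the lower line at -1.23, and the other 6 lie between the lines.

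Matches to the E2F6 core and the E-box were counted in the promoters of all members, since E2F6, MGA and MAX are known to act on such genes. RefSeq windows were found for 30 of the 35 genes, 38 windows in all. By symbol, 13555 of the 19703 genes with a probe on the array also had a window (68.8%), too few to stand for all genes on the array. The E2F6 core (TCCCGC on either strand) was in 17 of the 38 windows (44.7%), against 20.0% of all 32851 windows and 27.9% of those of these 13555 genes. The E-box (CACGTG, the same on both strands) was in 14 windows (36.8%), against 7.15% of all windows and 8.36% of those of the 13555 genes. Both were present in 9 windows (23.7%, against 1.99% of all and 2.94% of those of the 13555 genes). In no member window did they overlap. The median number of CpG dinucleotides was 19 per window in the members, 7 over all windows and 15 over those of the 13555 genes. Windows of 1 gene can overlap, and these counts come with no test.

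Detection did not follow the motifs one to one. The E2F6 core was in 5 of 10 windows of members detected on both arrays, in 4 of 5 windows of members detected on 1 array and in 8 of 23 windows of members detected on neither. For the E-box the counts were 2 of 10, 3 of 5 and 9 of 23. Stag3 and Syce2, detected in both clones, had both motifs, and so had the undetected Mael, Slc25a31, Hormad1 and Sycp3. Nanos3, Prdm1 and Tdrd7 were detected and had neither.

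**Figure D5:**
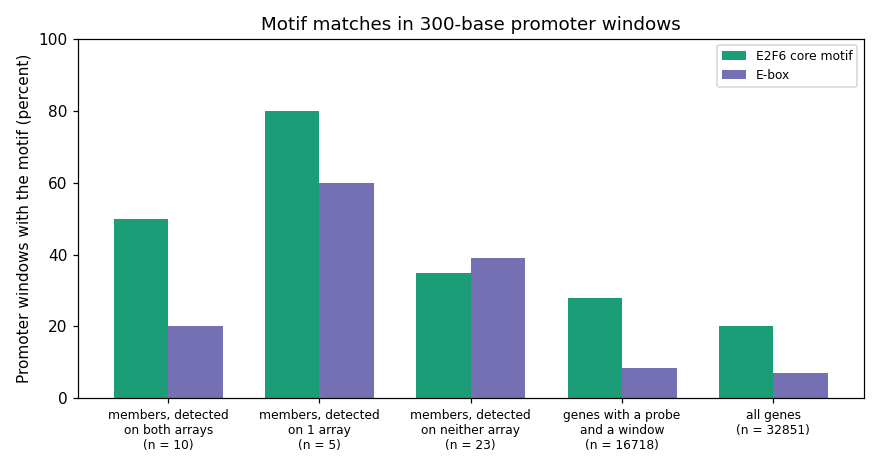
Share of 300-base promoter windows (percent) that hold the E2F6 core motif (green) or the E-box (purple), for members by detection, genes that have both a probe and a window, and all genes, with the number of windows in brackets. The E-box was in 39.1% of windows of undetected members. It was in 8.36% of windows of genes with a probe and a window, and in 7.15% of all windows.

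Genes whose products are known to keep the germ cell program off were detected in both clones. All 19 repressors with a probe were detected on both arrays, as were 65.2% of all genes. Whether their products act on the members in these cells was not tested. None of the 19 differed by 2-fold between clones (differences of -0.34 to 0.37 log2). Of all measured genes 1.41% were at least 2-fold higher and 0.952% at least 2-fold lower in clone 2, so that a list of this length with no such gene is near the background. E2f6, whose product binds the core motif, had a processed signal of 1844 in clone 2 and 1869 in clone 1. Its partner Mga had 235 in clone 2 and 265 in clone 1, and Max had 3113 in clone 2 and 3683 in clone 1. L3mbtl2, a chromatin-binding subunit of the same complex, had 423 in clone 2 and 507 in clone 1.

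Further genes of the germ line, from lists beyond the 35, were counted in the same way. Of 21 other meiosis genes 9 were detected on both arrays (42.9%), and of 10 other piRNA genes 5 were. Several of the meiosis genes act in mitotic cells too, among them the mismatch repair gene Mlh3, with 127 in clone 2 and 89.5 in clone 1. In the piRNA list, Tdrkh, a mitochondrial Tudor protein, had 218 in clone 2 and 479 in clone 1, a difference of -0.96 log2. Primordial germ cell genes were detected at about the rate of all genes (65.2%), 8 of 12 (66.7%). The 3 on neither array were Prdm14 (6.52 in clone 2, 7.01 in clone 1), Dppa3 (6.37 in clone 2, 7.17 in clone 1) and Dppa2 (8.28 in clone 2, 21.3 in clone 1). Ifitm3, a membrane protein of early germ cells, had 5122 in clone 2 and 8846 in clone 1, and the receptor Kit had 342 in clone 2 and 542 in clone 1. Of 18 spermatogonia and oocyte genes 5 were detected on both arrays (27.8%). Taf7l, a testis form of a general transcription factor subunit, was among them with 733 in clone 2 and 792 in clone 1. In these 4 lists no gene measured on both arrays differed by 2-fold, a count again near the background of 1.41% higher and 0.952% lower.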

How the data were processed

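The values are processed signal intensities of single spots, which Agilent Feature Extraction 11.0.1.1 (protocol GE1_1100_Jul11, array design 026655) had background-subtracted and detrended in the deposited scanner output, per its headers. The same files hold the software's spot errors and its 0 or 1 flags, another kind of value that was deposited with the intensities. Probe positions are in mm9, as the headers state. An alternative used the normalized intensities that the authors deposited as a table, by a method not given here.

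Control spots and outlier flags (246 spots in clone 2 and 277 in clone 1) were left out, log2 signals were averaged per probe and taken relative to the array's 75th percentile (Python 3.11.15, limma 3.58.1 for normexp). Each of the 43 member probes was printed once. A gene is detected when at least 1 probe is well above background; its difference is that of its brightest probe, counted from 2-fold upwards where both arrays measured it. A probe detected on 1 array gives only a bound, from the bright value down to whichever is higher on the dim array, the probe's own value or the lowest detected signal. That limit is approximate: in clone 2 an undetected Dmc1 probe read 35.9, above the lowest detected signal of 31.0. All 43 probe accessions led to the same symbol in RefSeq (GRCm38.p6, names and promoters only). Calculations were tested on simulated data. Every member detected on at least 1 array is named with its values. The members and lists were chosen with earlier results of these data known. With 1 array per clone no p-value was computed.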

Additional observations from a re-analysis of the deposited data

How the results depend on the processing

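No paired analysis was possible because each clone has 1 array, and for the same reason no replicate could be left out. The count of members detected on both arrays, 8 with the well above background flag, was 22 with the positive and significant flag (82.4% of all genes) and 20 against the 95th percentile of the negative controls (81.3% of all genes). For the counts that follow, the share of all measured genes in the same setting is given in brackets. Members at least 2-fold higher in clone 2 were 1 of 8 in the reported setting (1.41%). They were 0 of 8 with normexp correction (0.928%) or with the mean of all probes (1.285%), and 3 of 35 without a filter on dim probes (3.35%). Members at least 2-fold lower in clone 2 were also 1 of 8 (0.952%). They were 3 of 22 with the positive and significant flag (2.17%) and 2 of 20 against the negative controls (1.93%). With normexp correction they were 0 of 8 (0.452%), and without the filter 4 of 35 (2.58%). The median difference of the measured members was 0.25 log2 with normexp correction, where the median of all genes was 0.09. It ran from 0.03 to 0.25 over the 9 alternatives. Normexp correction also turned the difference of Ddx4, from a probe near the detection limit, to 0.56 log2; the cause was not tested. Without spots beside a spot at least 2-fold apart in the same direction, Sycp1 had no value. With quantile normalization and with the authors' deposited values, 10 of the 12 detected members kept their sign, and with normexp correction 9 did. Matching by RefSeq names left all 4 summaries as reported. Signals under about the lowest detected probe of an array cannot be ordered.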

Other observations

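Outside the members, 2 genes of the other lists were far apart between the clones. Zbtb16 (PLZF), a transcription factor of undifferentiated spermatogonia that other tissues also use, had 25.0 in clone 2, not well above background, and 167 in clone 1, and was at least 4.78-fold lower in clone 2. It was chosen after its values were seen. Cyp17a1, a steroid-synthesis enzyme of the gonad and adrenal gland, had 3428 in clone 2 and 1019 in clone 1, a 3.80-fold higher scaled signal in clone 2, and was the 1 gene of the gonad list that was measured on both arrays and at least 2-fold apart.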
